A study of Mus musculus with 6 samples.

Results

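The genes described are 8 oncofetal genes of the HMGA, IGF2BP, LIN28 and ARID3 families, which are cited as targets of the let-7 microRNAs: Hmga1, Hmga2, Igf2bp1, Igf2bp2, Igf2bp3, Lin28b, Arid3a and Arid3b. They were taken by name from a table of 11866 genes, 7 of them had a row, and Lin28b is not analysed here. The genes were chosen by name and family with the log2 FPKM difference between the groups already known, Hmga2 and Igf2bp1 being singled out as higher, so every difference between the groups given for these genes is a description and supports nothing. The cells were HCC3-4, a line grown from a liver tumour of a MYC transgenic mouse. In the KD group the cells carried a stable short hairpin against Sf3b3 (3 libraries), and in the PLKO group they carried the empty control pLKO.1-TRC (3 libraries). Poly(A) RNA was sequenced. The labels name neither a further hairpin nor a rescue nor whether a population came from 1 clone, so other differences between the populations cannot be told apart from lower Sf3b3. Whether the 3 libraries of a group stem from different cultures is not labelled, so the p-values below rest on library-to-library spread that could be technical.

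Oncofetal genes are active in the embryo, silent in most adult tissues and active again in many tumours. HMGA1 and HMGA2 are small chromatin proteins whose AT-hooks bind the minor groove of AT-rich DNA. IGF2BP1, IGF2BP2 and IGF2BP3 bind messenger RNAs through KH domains and are known to stabilise them, with m6A as a recognised mark. LIN28B blocks the maturation of let-7, which in turn represses LIN28B, HMGA2, IGF2BP1 and the DNA-binding proteins ARID3A and ARID3B through sites in their 3' untranslated regions (UTRs). Levels of this group are high in fetal liver and return in a part of liver cancers.

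The let-7 family is shown first, because its seed is what the target sites pair with. Of 11 mature let-7 and miR-98 sequences in the RefSeq table (GRCm38.p6), 10 share the seed of let-7a, bases 2 to 8, given here in capitals, and let-7j has another. A few of them are printed to show that the seed is shared while later bases vary. No let-7 or Mir98 gene had a row, and poly(A) RNA does not measure mature microRNAs, so let-7 itself is not analysed here.
mmu-let-7a-5p: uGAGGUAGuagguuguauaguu
mmu-let-7e-5p: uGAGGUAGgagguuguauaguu
mmu-let-7i-5p: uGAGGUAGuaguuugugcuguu
mmu-miR-98-5p: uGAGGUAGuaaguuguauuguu
mmu-let-7j: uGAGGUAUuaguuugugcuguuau

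Hmga2 had 7 seed matches of 7 or 8 bases in the longest 3' UTR that GENCODE M21 (GRCm38) annotates for it, which spans 3014 bases. An 8mer pairs with bases 2 to 8 and has an A opposite base 1, a 7mer-m8 lacks that A, and a 7mer-A1 pairs with bases 2 to 7 and has the A. Of 11119 listed genes with an annotated 3' UTR, 5 had 7 or more such matches, Hmga2 among them. The 7 sites of Hmga2 are printed with the pairing bases in capitals, and positions give the first base of the match to bases 2 to 7, counted from 1 after the stop codon.
Hmga2 8mer at base 59, chr10:120364222-120364249, minus strand: ggcgccgacattcaatttCTACCTCAgc
Hmga2 7mer-A1 at base 1143, chr10:120363138-120363165, minus strand: gaaagaccgcagtaccactTACCTCAga
Hmga2 7mer-m8 at base 1296, chr10:120362986-120363013, minus strand: taatccccactcctcaataCTACCTCtg
Hmga2 7mer-A1 at base 1684, chr10:120362597-120362624, minus strand: atataagtctccaagtttgTACCTCAaa
Hmga2 7mer-m8 at base 1734, chr10:120362548-120362575, minus strand: cttcctgatttgcaaggaaCTACCTCca
Hmga2 7mer-m8 at base 2592, chr10:120361690-120361717, minus strand: gtacaatcaaaacacactaCTACCTCtt
Hmga2 7mer-A1 at base 2611, chr10:120361670-120361697, minus strand: tacctcttaagtcccagtaTACCTCAtt

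Igf2bp1 had 5 matches in a 3' UTR of 6337 bases, 3 of them 8mers, and the windows of the first pair of sites overlap. At least 5 matches were found in 15 of the 11119 genes.
Igf2bp1 8mer at base 1716, chr11:95961776-95961803, minus strand: agtgctgtgcgaagtaaaCTACCTCAag
Igf2bp1 7mer-A1 at base 1734, chr11:95961758-95961785, minus strand: ctacctcaaggtgtgaagtTACCTCAgc
Igf2bp1 8mer at base 4137, chr11:95959355-95959382, minus strand: aaccagcagtgctattaaCTACCTCAgc
Igf2bp1 8mer at base 4731, chr11:95958761-95958788, minus strand: cgagtataaatggatgaaCTACCTCAgt
Igf2bp1 7mer-m8 at base 5354, chr11:95958139-95958166, minus strand: tttcacttttggttttaatCTACCTCtt

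The other listed genes are shown by 1 site each, an 8mer where there was one. Arid3b had 5 matches in 2160 bases and Arid3a 4 in 3082 bases. Igf2bp2 had 2 in 1784 bases, Igf2bp3 had 1 in 2119 bases and Hmga1 had 1 in 1183 bases, a number that 17.3% of the genes with a 3' UTR reached. A match is a run of letters and no evidence that let-7 binds there in these cells.
Igf2bp2 8mer at base 1314, chr16:22059471-22059498, minus strand: aaaacacacaaataaaagCTACCTCAgg
Igf2bp3 8mer at base 549, chr6:49086785-49086812, minus strand: acgtgcatttttactcaaCTACCTCAgg
Arid3a 8mer at base 1975, chr10:79953892-79953919, plus strand: tgcaaggcaagtttctttCTACCTCAgg
Arid3b 7mer-m8 at base 2149, chr9:57790360-57790387, minus strand: tttatatttcaataaagctCTACCTCtt
Hmga1 7mer-m8 at base 802, chr17:27563273-27563300, plus strand: cttctcctctgttcacaaaCTACCTCtg

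**Figure D1:**
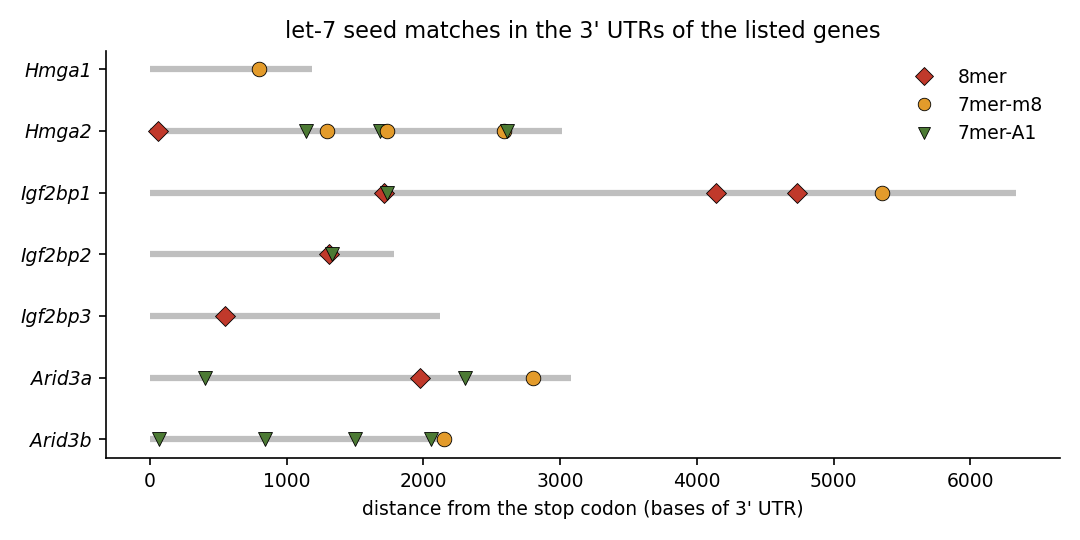
Positions of let-7 seed matches along the 3' UTR of each listed gene (grey line, length in bases from the stop codon), with 8mers as red diamonds, 7mer-m8 as orange circles and 7mer-A1 as green triangles. Hmga2 has 7 matches and Igf2bp1 and Arid3b have 5 each, against 1 each in Hmga1 and Igf2bp3.

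Sf3b3, the target of the hairpin, was read in every library first. It stood at 10.3, 9.56 and 13.9 FPKM (fragments per exon length and library size, as deposited by the authors) in KD 1, 2 and 3, against 22.6, 28.7 and 29.2 FPKM in PLKO 1, 2 and 3, so every KD library lay below every PLKO library. It fell with a log2 fold change of -1.26 (SE 0.23, limma adjusted p = 0.037, and 0.0045 with the replicate number as a block). No label pairs the libraries, and the block rests on a check of these same data, here and below. Each library had 15140441 to 17566101 reads over the table, and 10770 genes with a mean of at least 1 FPKM were tested. Of 20 hepatocyte markers 19, Alb and Hnf4a among them, had no row, although the line is labelled a liver cancer line. The remaining one, Ass1, a urea cycle enzyme, had 5.09, 6.64 and 14.1 FPKM in KD, against 20.4, 15.1 and 19.3 FPKM in PLKO (log2 fold change -1.22, limma adjusted p = 0.079, 0.012 with the block), with no overlap. Of 12 mesenchymal markers 7 had a row, with a summed level of 307 to 655 FPKM in KD and 584 to 754 FPKM in PLKO. Of the 5 mesenchymal markers tested 4 were lower in KD (median log2 fold change -0.96) and 0 were called (3 at an unadjusted p under 0.05). The share of all tested genes at an unadjusted limma p under 0.05 was 27.6%. Col3a1, a collagen, and Pdgfrb, a growth factor receptor, lay below every PLKO library in every KD library (log2 fold changes -1.24 and -0.96, limma adjusted p = 0.051 and 0.064, called with the block at 0.0045 and 0.012). Bile duct markers (4 of 8 with a row) summed to 140 to 257 FPKM in KD and 111 to 243 FPKM in PLKO, endothelial markers (2 of 8) to 0.709 to 1.16 FPKM in KD and 0.851 to 0.986 FPKM in PLKO, and Cd68, the 1 leukocyte marker of 10 with a row, ran from 44.4 to 95 FPKM in KD and from 9.19 to 42.1 FPKM in PLKO (log2 fold change 1.76, limma adjusted p = 0.075, 0.0018 with the block). The part of these markers in the results below was not tested, and fewer cells of a kind and less RNA per cell cannot be told apart.

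Hmga2 was 2.12 times as high in the knockdown cells on the log2 mean. It had 49, 50.4 and 25.8 FPKM in KD 1, 2 and 3, against 25.4, 19.8 and 13.2 FPKM in PLKO 1, 2 and 3. KD 1 and KD 2 stood well above the rest, and KD 3 lay 0.02 above PLKO 1 on the log2 scale, so the groups touch without overlap. The mean was 41.7 ± 13.8 FPKM in KD and 19.5 ± 6.13 FPKM in PLKO (SD, n = 3 each), and the log2 fold change was 1.09 (SE 0.33, 95% interval 0.34 to 1.84). It was covered by 5126, 5405 and 3060 reads in KD and by 3119, 2242 and 1413 in PLKO. Between libraries of the same number the log2 difference was 0.94, 1.35 and 0.96. The gene (ENSMUSG00000056758.14) occupies bases 120361275 to 120476469 of chromosome 10, minus strand, and overlaps 1700006J14Rik and 9230105E05Rik on the other strand, and whether the counting used strand is not given in the sources used here.

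Hmga1 differed less. It had 98.6, 128 and 85.2 FPKM in KD, against 88.5, 82.9 and 54.3 FPKM in PLKO, and KD 3 lay below PLKO 1, so the groups overlap. Its log2 fold change was 0.48 (interval -0.10 to 1.05). Hmga1 was the most abundant of the listed genes per length in every library, and stood 2.01 to 3.31 times as high as Hmga2 in KD and 3.48 to 4.18 times as high in PLKO. The value of Hmga1 is uncertain, because Hmga1b on chromosome 11 (120762794 to 120764419) is a near copy: 89% of the distinct 50-base words of its transcripts also occur in Hmga1. Hmga1b stood at 233, 288 and 196 FPKM in KD, against 221, 190 and 121 FPKM in PLKO, and was 2.22 to 2.5 times as high as Hmga1 in all 6 libraries. How reads that match both were assigned is not given in the sources used here. Hmga1 lies on chromosome 17 from 27556497 to 27563674 and overlaps AI413582 on the other strand.

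**Figure D2:**
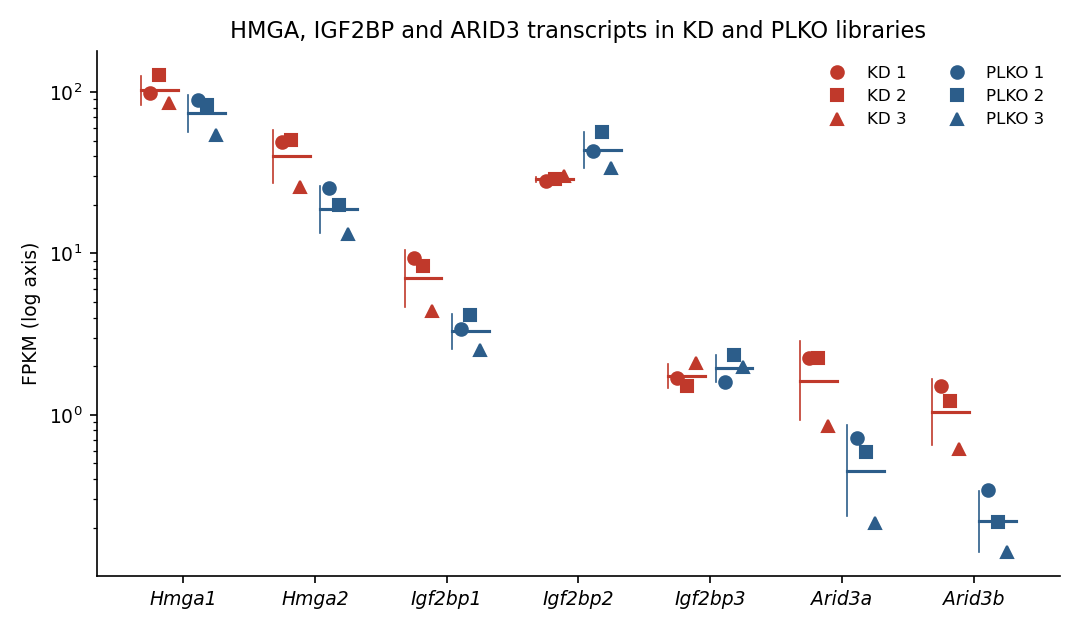
FPKM on a log axis of the 7 listed genes in each library, KD in red left of PLKO in blue, with the library number given by the symbol; horizontal lines are the means of the log2 values and vertical lines their SD (n = 3 each). Hmga2, Igf2bp1, Arid3a and Arid3b lie higher in KD without overlap, Igf2bp2 lies lower without overlap, and triangles (libraries numbered 3) are low in both groups for 5 of the 7 genes.

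The IGF2BP genes went different ways. Igf2bp1 had 9.42, 8.33 and 4.39 FPKM in KD, against 3.42, 4.16 and 2.52 FPKM in PLKO. KD 3 lay 0.08 above PLKO 2 on the log2 scale, and the other KD libraries were clearly higher. The mean was 7.38 ± 2.65 FPKM in KD and 3.37 ± 0.821 FPKM in PLKO (SD, n = 3 each), and the log2 fold change was 1.09 (SE 0.34, interval 0.32 to 1.86), on 744 to 1409 reads in KD and 385 to 672 in PLKO. The gene (ENSMUSG00000013415.9) lies on chromosome 11 from 95957163 to 96005940.

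Igf2bp2, the member that adult tissues also express, had 28, 28.7 and 30 FPKM in KD, against 42.8, 56.5 and 33.8 FPKM in PLKO. All 3 KD libraries lay within a narrow band below every PLKO library. Its log2 fold change was -0.59 (interval -1.10 to -0.07), and by library number the log2 difference was -0.61, -0.98 and -0.17. The gene lies on chromosome 16 from 22059009 to 22163299. Igf2bp3 had 1.68, 1.51 and 2.1 FPKM in KD, against 1.59, 2.34 and 1.97 FPKM in PLKO, with overlapping groups and a log2 fold change of -0.15 (interval -0.88 to 0.57). It lies on chromosome 6 from 49085223 to 49214957 and overlaps Malsu1 on the other strand.

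In the make-up of the IGF2BP transcripts the shares of Igf2bp1 and Igf2bp2 differed between the groups without overlap, and that of Igf2bp3 overlapped. Igf2bp1 had been singled out as higher, so its share is a description. Igf2bp1 gave 24.1%, 21.6% and 12% of the summed IGF2BP level in KD 1, 2 and 3, against 7.15%, 6.61% and 6.6% in PLKO 1, 2 and 3. Igf2bp2 gave 71.6%, 74.4% and 82.2% in KD, against 89.5%, 89.7% and 88.3% in PLKO. The sum itself overlapped between the groups, with 39.1, 38.5 and 36.5 FPKM in KD and 47.8, 63 and 38.3 FPKM in PLKO, and Igf2bp2 remained the most abundant of the family in every library.

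**Figure D3:**
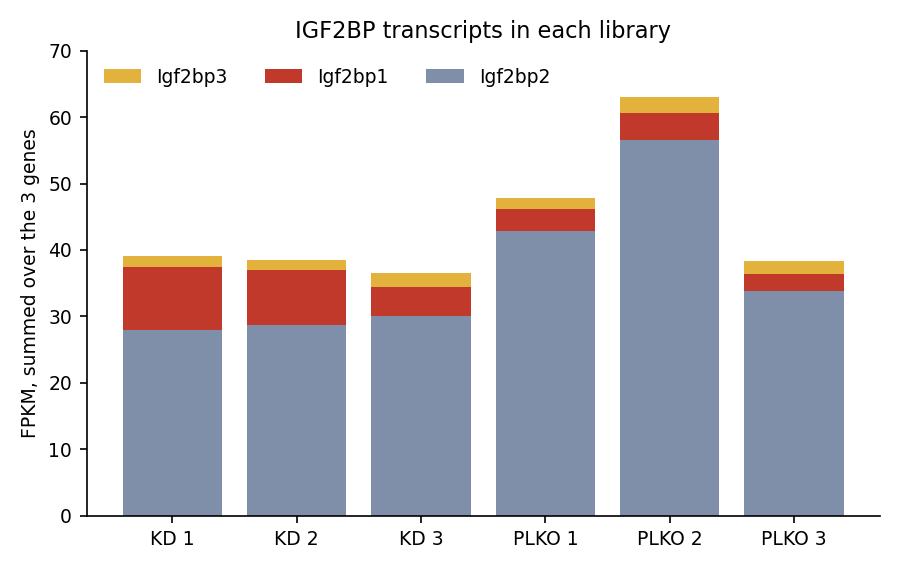
Stacked FPKM of Igf2bp2, Igf2bp1 and Igf2bp3 in each KD and PLKO library. Igf2bp1 (red) makes up 12% to 24.1% of the bar in KD and 6.6% to 7.15% in PLKO.

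Both ARID3 genes were low in PLKO and higher in KD. Arid3a, a DNA-binding protein first described in B cells, had 2.25, 2.25 and 0.851 FPKM in KD, against 0.716, 0.592 and 0.215 FPKM in PLKO, a log2 fold change of 1.86 (interval 0.44 to 3.27). The reads numbered 192, 196 and 81 in KD and 70, 53 and 17 in PLKO. KD 3 lay just above PLKO 1. Arid3a passed the filter on low values through KD, since its mean in PLKO was 0.508 FPKM. Arid3b, its close relative, had 1.51, 1.22 and 0.615 FPKM in KD, against 0.34, 0.218 and 0.142 FPKM in PLKO, on 184, 152 and 84 reads in KD and 47, 27 and 16 in PLKO. Its difference of 2.25 on the log2 scale is the largest of the 7 genes, and it was not tested because its mean over all libraries, 0.673 FPKM, lay under the filter. Arid3a lies on chromosome 10 from 79927043 to 79955018 and Arid3b on chromosome 9 from 57790353 to 57836793.

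In order of level per length, KD cells had Hmga1 first, then Hmga2 and Igf2bp2, whose ranges overlap, then Igf2bp1, and then Arid3a, Igf2bp3 and Arid3b. Arid3a overlaps both Igf2bp3 and Arid3b there, whereas Igf2bp3 and Arid3b only meet at about 1.51 FPKM. In PLKO cells Hmga1 and Igf2bp2 came first with overlapping ranges, followed by Hmga2, Igf2bp1 and Igf2bp3 without overlap, and by Arid3a and Arid3b, whose ranges overlap.

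No listed gene of the set passed the test over all genes. Of the 6 tested, 0 had a limma adjusted p under 0.05, where 2.92% of all 10770 tested genes did (1.12% higher in KD and 1.79% lower). An unadjusted p under 0.05 was found for 4 of them (27.6% of all tested genes), and voom on recovered reads called 0. With the replicate number as a block, Hmga2, Igf2bp1 and Arid3a were called, 3 of 6 and all higher in KD, where that fit called 19.3% of all tested genes (8.19% higher and 11.1% lower). That pairing is not labelled. Deviations from the group means correlated at 0.18 and 0.29 for numbers 1 and 2. With these numbers swapped they correlated at 0.30 and 0.27. The groups did not overlap for 5 of the 7 listed genes, against 31.9% of all listed genes. The median log2 fold change of the 6 tested genes was 0.78, and of all tested genes -0.04. Because the set was proposed with this contrast known, nothing is read from these shares. Without KD 3 the log2 fold changes of Hmga2, Igf2bp1 and Arid3a were 1.40, 1.43 and 2.32. All were called in that fit, which called 1744 genes of the whole table. Without PLKO 3 the log2 fold changes of these genes were 0.83, 0.89 and 1.32. With any single library but KD 3 left out, 0 tested genes of the set were called.

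**Figure D4:**
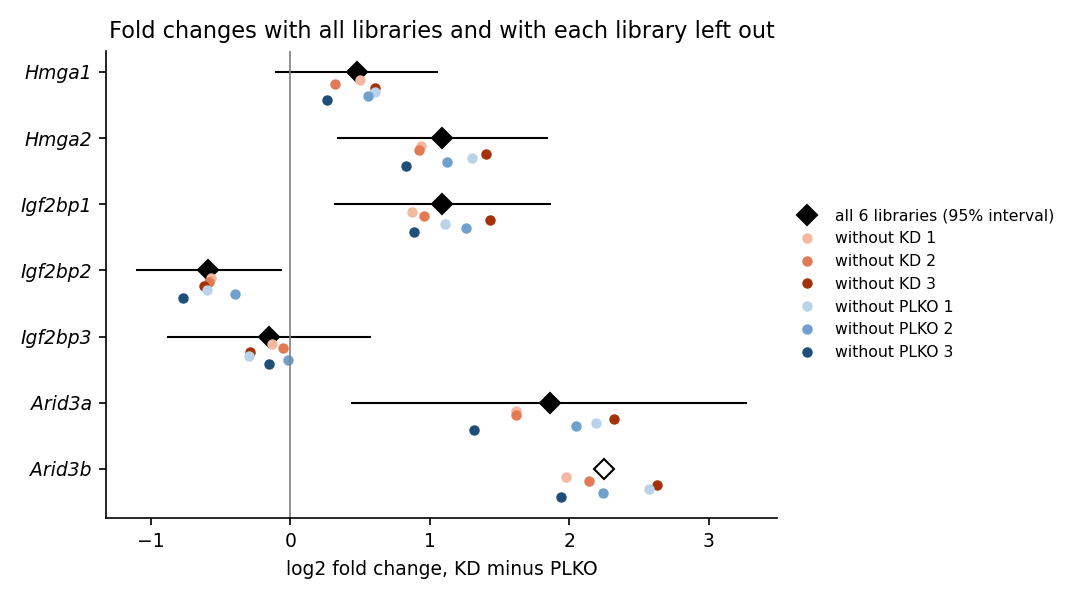
Log2 fold change, KD minus PLKO, of the listed genes with all 6 libraries (black diamonds, lines are 95% intervals from limma; the open diamond of Arid3b has no test) and with each library left out in turn (coloured points). Hmga2 stays between 0.83 and 1.40 and Igf2bp1 between 0.87 and 1.43, and no gene changes sign.

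Within each group most of the listed genes shared a pattern. The set was chosen with earlier results of these data known, so this too is a description. The library numbered 3 was the lowest of its group in both KD and PLKO for Hmga1, Hmga2, Igf2bp1, Arid3a and Arid3b, 5 of the 7 listed genes, where 23.9% of all listed genes show this. Igf2bp2 was lowest in PLKO 3 but highest in KD 3, and Igf2bp3 was highest in KD 3. KD 3 also had the most Sf3b3 of the KD libraries (13.9 FPKM, against 10.3 and 9.56 FPKM in KD 1 and KD 2). The part of this in the pattern was not tested. Over the 6 libraries the log2 level of Hmga2 had a Pearson r of 0.99 with Arid3a, 0.95 with Igf2bp1, 0.92 with Hmga1, -0.53 with Igf2bp2 and -0.66 with Igf2bp3. These values share the libraries, their scaling and the difference between the groups, and are given as a description.

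Most like Hmga2 over the 6 libraries were Pbx2 (r = 0.995), a homeodomain partner of HOX proteins, Sipa1l1 (r = 0.995) and Kif18a (r = 0.994), a mitotic kinesin. Their log2 fold changes were 0.87, 0.48 and 0.63, none of them called (limma adjusted p from 0.12 to 0.19), though Pbx2 was with the block (0.016). Most like Igf2bp1 were Spg20 (r = 0.998), Phf20 (r = 0.996) and C2cd2l (r = 0.994), at 0.91, 0.76 and 1.03 on the log2 scale (limma adjusted p from 0.079 to 0.11, and called with the block at 0.017, 0.029 and 0.011). A likeness of r above 0.95 was reached by 179 tested genes, or 1.74%, for Hmga2 and by 279, or 2.71%, for Igf2bp1.

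Genes that make, block or use let-7 held no call. Of 17 tested genes of let-7 processing and decay, 0 passed the limma test over all genes (3 at an unadjusted p under 0.05), with a median log2 fold change of 0.05. With the block 2 of them, Drosha, which cuts primary microRNAs in the nucleus, and Xpo5, which exports the precursors, were called lower. Of all tested genes 27.6% had an unadjusted limma p under 0.05 and 19.3% were called with the block. Neither the 3 nor the 2 of 17 lies above those shares. Drosha had 7.11 ± 1.92 FPKM in KD and 14 ± 1.54 FPKM in PLKO (SD, n = 3 each; log2 fold change -1.01, limma adjusted p = 0.059, 0.013 with the block). Xpo5 had 8.15 ± 1.22 FPKM in KD and 15 ± 3.66 FPKM in PLKO (-0.86, adjusted p = 0.071, 0.023 with the block). Dicer1, which cuts the precursor in the cytoplasm, had a log2 fold change of 0.75 (adjusted p = 0.13).

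Of 18 tested Argonaute, TNRC6 and deadenylase genes, which carry out silencing, 16 were higher in KD with a median of 0.45, and 0 were called (5 at an unadjusted p under 0.05, and 2 with the block, Ago1 and Tnrc6b). Over all tested genes 47.7% were higher in KD, 27.6% had an unadjusted p under 0.05 and 19.3% were called with the block, and neither count of 5 or 2 of 18 stands out from those shares. Ago1 had 13.7 ± 0.525 FPKM in KD and 8.2 ± 0.0725 FPKM in PLKO (n = 3 each; log2 fold change 0.74, limma adjusted p = 0.062, 0.031 with the block). Tnrc6b, a scaffold that Argonaute recruits, had a log2 fold change of 0.96 (adjusted p = 0.13, 0.019 with the block) and Cnot7 of 0.51 (0.16).

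Among 49 other tested genes cited as let-7 targets, limma called 2 higher and 1 lower, where 2.92% of all tested genes were called. By sign 30 were higher and 19 lower in KD, and 47.7% of all tested genes were higher. An unadjusted limma p under 0.05 was found for 19 of them, against 27.6% of all tested genes. The median log2 fold change was 0.23, against -0.04 over all tested genes. Plagl2, a zinc finger oncogene, had 15.3, 11.3 and 10 FPKM in KD, against 3.22, 5.21 and 4.47 FPKM in PLKO, and rose by 1.51 on the log2 scale (limma adjusted p = 0.036). Acvr1b, an activin receptor, had 19.8, 21.1 and 14.3 FPKM in KD, against 8.41, 8.03 and 6.86 FPKM in PLKO (1.23, adjusted p = 0.038). Ccnd2, cyclin D2, fell to 8.61, 8.08 and 10.3 FPKM in KD, against 19.9, 25.2 and 26.1 FPKM in PLKO (-1.40, adjusted p = 0.031). The groups of these genes do not overlap. With the block 11 of the 49 were called higher and 3 lower, where that fit called 19.3% of all tested genes. All 3 calls were lost without KD 1, KD 2, PLKO 1 or PLKO 2, where no gene of the whole table was called (adjusted p up to 0.19), while the log2 fold changes with 1 library left out stayed between 1.32 and 1.66 for Plagl2, 1.12 and 1.40 for Acvr1b, and -1.52 and -1.32 for Ccnd2.

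The seed matches were also counted over all 10156 tested genes with a 3' UTR, the set itself left out of the groups that follow. The 377 genes with at least 1 8mer had a median log2 fold change of 0.12, and 60.2% of them were higher in KD. The 8433 genes with no match of 7 or 8 bases had a median of -0.06, with 45.9% higher. The 66 genes with at least 3 matches had a median of 0.35, with 69.7% higher, 1 called higher and 2 called lower. The length of the 3' UTR moved with these groups, with a median of 2636 bases for genes with an 8mer, 5007 bases for those with at least 3 matches and 1008 bases for those with none. Among genes with no match the 419 with a 3' UTR of at least 4000 bases had a median of 0.16, and the 43 genes with at least 3 matches at that length had a median of 0.42. Under 2000 bases the 146 genes with an 8mer had a median of 0.13 (57.5% higher in KD), against -0.10 for the 6373 genes with no match (43.4% higher). At 2000 bases or more the medians were 0.11 for 231 genes with an 8mer and 0.06 for 2060 with no match. The limits of 3 matches, 2000 bases and 4000 bases were chosen after the values were seen, and the part of length in the difference was not tested.

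**Figure D5:**
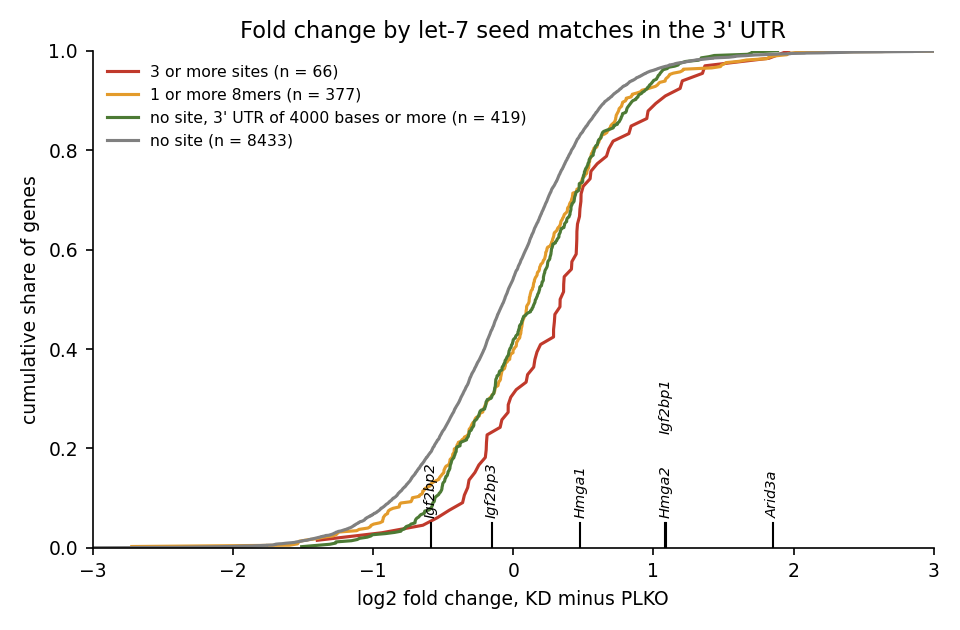
Cumulative share of tested genes against log2 fold change, KD minus PLKO, for genes with at least 3 let-7 seed matches (red), at least 1 8mer (orange), no match and a 3' UTR of at least 4000 bases (green) and no match (grey); black ticks mark the tested genes of the set, which are in none of the curves. The red curve lies to the right, with a median of 0.35 against -0.06 for the grey one, and the orange and green curves lie close together.

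Of 19 tested messenger RNAs cited as bound by IGF2BP proteins, 1 was called, where 2.92% of all tested genes were. Cd44, the hyaluronan receptor, rose to 79.8 ± 12.6 FPKM in KD, against 37.8 ± 8.89 FPKM in PLKO (n = 3 each; log2 fold change 1.09, limma adjusted p = 0.048), and its call was lost when any library but KD 3 was left out, with log2 fold changes from 0.94 to 1.27 there. Ptgs2, a cyclooxygenase, had a log2 fold change of 0.84 (limma adjusted p = 0.086, 0.034 with the block). The list had a median of 0.11, with 5 called higher and 1 called lower with the block. That fit called 8.19% of all tested genes higher and 11.1% lower. Myc, named here for the binding of its message by IGF2BP1 and after its values were seen, had 9.88, 12.2 and 30.6 FPKM in KD, against 32, 87.5 and 19.1 FPKM in PLKO, and its groups overlap. Its log2 fold change was -1.29 (limma adjusted p = 0.18), and by library number the log2 difference was -1.70, -2.84 and 0.68. The line comes from a MYC transgenic mouse. Whether reads of the transgene fall in this row is not given in the sources used here.

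Of 19 tested m6A writers, erasers and other readers 0 were called (8 at an unadjusted p under 0.05, 3 with the block). For this list and the next, the shares of all tested genes were 27.6% at an unadjusted limma p under 0.05 and 19.3% with the block. Rbm15, an adaptor of the writer complex, had a log2 fold change of 1.23 (limma adjusted p = 0.057, 0.0071 with the block), Cbll1 of 1.10 (0.064, 0.012 with the block) and Hnrnpa2b1 of 0.63 (0.094). Of 12 tested genes cited as downstream of HMGA proteins 0 were called (5 at an unadjusted p under 0.05, 4 with the block), with Plau at 0.89 (adjusted p = 0.058, 0.017 with the block), Snai2 at -1.43 (0.085, 0.0067 with the block) and Pim1 at 1.60 (0.11, 0.0018 with the block).

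The relatives outside the oncofetal families held no call either. For the counts that follow, 27.6% of all tested genes had an unadjusted limma p under 0.05 and 19.3% were called with the block. Of 10 tested HMGB, HMGN and other HMG genes 0 were called by limma (3 at an unadjusted p under 0.05, 2 with the block), with Hmgxb4 at 0.98 (adjusted p = 0.062, 0.016 with the block), Hmgn5 at -1.37 (0.066, 0.0084 with the block) and Hmgxb3 at 0.45 (0.17). Of 11 tested AT-rich interaction domain genes other than Arid3a and Arid3b, 0 were called (3 at an unadjusted p under 0.05, 0 with the block), with Arid5b at 0.50, Arid5a at 0.57 and Arid4b at 0.74 (limma adjusted p from 0.13 to 0.17). Of 22 other fetal liver and liver tumour genes 9 had a row and 7 were tested, none of them called (1 at an unadjusted p under 0.05). Mest, an imprinted gene of fetal tissue, had 1.24 ± 0.739 FPKM in KD and 3.71 ± 1.22 FPKM in PLKO (n = 3 each; log2 fold change -1.70, limma adjusted p = 0.074, 0.017 with the block). Cd24a and Krt19 had log2 fold changes of -0.43 and 0.47 (adjusted p = 0.29 and 0.51).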

How the data were processed

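The authors deposited 1 table of log2 FPKM for 11866 genes in 6 libraries. Per the submitters' processing notes, reads were checked with FastQC 0.11.7 and the genome was GRCm38; the sources used here name no aligner, counter, strand setting or gene filter. Log2 values in the deposited table run from -7.85 to 13.17, and 21 genes share exact floors, above which values climb in steps of 1 read on top of a prior averaging 2 reads, which shrinks differences at low coverage. With lengths from GENCODE M21 or a scan of lengths, 100% of the genes gave whole reads (tolerance 0.01). These reads serve as depth and in 1 alternative. FPKM are powers of 2 of the deposited values.

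limma 3.58.1 (R 4.3.3) with a mean-variance trend was fitted to the deposited values of the 10770 genes with a mean of at least 1 FPKM, with the group as the only term and 4 residual degrees of freedom; Benjamini-Hochberg adjusted p under 0.05 over all tested genes was called. Named genes are the members, up to 3 genes per list with the lowest adjusted p, and the 3 genes most like Hmga2 and Igf2bp1 by Pearson r; Myc, Hmga1b and the genes with at least 5 seed matches were added after their values were seen. A list gene that this rule names is not reported here. The fit was tested on simulated data. Equal library numbers were checked for pairing: deviations from the group means correlated at 0.18, 0.29 and 0.50 for numbers 1, 2 and 3, all over 0.1, so a fit with the number as a block is given where it changes a call. No label states this pairing, and KD 2 with PLKO 1 and KD 1 with PLKO 2 correlated at 0.27 and 0.30. Seed matches were counted in the longest 3' UTR of a protein-coding transcript per gene (GENCODE M21). The members and lists were chosen with earlier results of these data known.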

Additional observations from a re-analysis of the deposited data

How the results depend on the processing

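The test over all genes depends on single libraries. It called 314 genes, 2080 with the replicate block, 3599 with array weights, 3009 without both libraries numbered 3, and between 0 and 1744 with 1 library left out (0 without KD 1, KD 2, PLKO 1 or PLKO 2, where 1793 to 2315 genes had an unadjusted p under 0.05, 801 without PLKO 3 and 1744 without KD 3). Of the 6 tested oncofetal genes 0 were called, 3 with the replicate block, 5 with array weights, 4 without both libraries numbered 3 and 0 to 3 with 1 library left out (3 without KD 3). Sf3b3 had log2 fold changes from -1.43 to -1.15 over these alternatives and lost its call without KD 1, KD 2, PLKO 1 or PLKO 2 (values from -1.38 to -1.15, limma adjusted p from 0.12 to 0.19). Neither the log2(FPKM + 1) scale, the other filters, quantile normalization, equal medians nor voom on recovered reads changed the call of a gene of the set. The direction of the 7 listed genes held in each alternative run, but on the log2(FPKM + 1) scale Arid3a was at 0.85 and Arid3b at 0.76, against 1.86 and 2.25. Krt19 changed sign without KD 3 (-0.02, with 1 library left out it ran from -0.02 to 0.87) and without both libraries numbered 3 (-0.29). The cause was not tested. Array weights were estimated gene by gene, chosen after the default estimate stopped before convergence. They were 1.071, 5.633 and 0.371 for KD 1, 2 and 3, and 1.435, 0.567 and 0.55 for PLKO 1, 2 and 3. The KD mean in that setting therefore rests mostly on KD 2. Depth limits Arid3a and Arid3b most, with 16 to 70 reads per PLKO library.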

Other observations

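Outside the set, 9 tested genes had at least 5 let-7 seed matches in the 3' UTR, and 8 of them had a positive log2 fold change (median 0.55). By limma 0 were called and 3 with the replicate block. Over all tested genes with a 3' UTR 47.3% were higher in KD and 19.5% were called with the block. They are named after their values were seen. Trim6, a ubiquitin ligase with 5 8mers, had a log2 fold change of 1.82 (limma adjusted p = 0.059, 0.011 with the block), the chloride transporter gene Clcn5 of 1.19 (0.076, 0.011 with the block) and Zfp652, a zinc finger repressor, of 0.96 (0.059, 0.017 with the block). Nr6a1, the germ cell nuclear factor that marks early embryos and holds 8 matches, was at 0.68 (adjusted p = 0.19). Nudt12 was at -0.08 with 7 matches. D10Wsu102e was at 0.36 with 8 matches, in an annotated 3' UTR of 122583 bases. Nr6a1 and Hic2, both of these genes, are also among the other cited let-7 targets described above. let-7 was not measured, and the part of 3' UTR length, a median of 4656 bases in these 9 genes, was not tested.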
